A study of Homo sapiens with 12 samples.

Results

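Kidney injury marker genes are transcripts that rise in damaged tubules, and 10 of them were followed here in HK-2 cells: CLU, TIMP1, SPP1, IL18, LCN2, VCAM1, HAVCR1, CD44, SOX9 and ANXA2. Every probe set (a group of short probes for one transcript on an Affymetrix array) whose only annotated gene is 1 of them was taken, which gave 30 of the 54675 probe sets on the array. Of these 30, 22 lay above a log2 value of 4 on at least 3 of the 12 arrays and were kept. The kept probe sets represent 9 of the 10 genes, among 10907 genes tested in all, and the gene without one is LCN2.

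HK-2 is an immortalised line of human proximal tubule epithelium, grown here in medium with EGF, hydrocortisone, insulin, transferrin and selenite and treated at near confluence. The groups were low-dose Nnm for 24 h, vehicle control for 24 h, low-dose Nnm for 48 h and vehicle control for 48 h, with 3 arrays of biological replicates each. Nnm is the label's code for the compound, and its dose is labelled only as low. All groups share the cell line and the medium, so the replicates are cultures of 1 line and not donors, and with so few arrays per group the precision is limited. The series belongs to a survey that looked for expression signatures of kidney toxicity.

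After injury, proximal tubule cells lose transport functions and switch on a repair programme. They shed or secrete proteins that can be read in urine, such as KIM-1 (the product of HAVCR1), NGAL (LCN2), clusterin, osteopontin (SPP1), interleukin-18 and TIMP-1. They also display adhesion molecules such as VCAM-1 and CD44, re-express the developmental transcription factor SOX9, and can remain in an inflamed state when repair fails.

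Between 40.4% and 40.8% of probe sets on each array lay above a log2 value of 4. Markers of the differentiated proximal tubule were mostly absent: of 15 such genes with a probe set, 11 had a mean under 4, among them the endocytic receptors LRP2 (2.53 to 2.60) and CUBN (2.09 to 2.11) and the phosphate transporter SLC34A1 (2.95 to 3.00). The other 4 (DPP4, CDH6, PAX8 and CDH2) were expressed. None of the 6 leukocyte markers was kept, with PTPRC at 2.84 to 3.05 and CD14 at 2.13 to 2.28 over the 12 arrays. Of 8 fibroblast markers, DCN, LUM and COL1A1 were expressed and 5 had a mean under 4. The Nnm replicate 2 arrays stood apart. In a principal component analysis the leading axis carried 50.3% of the variance, and these arrays scored 1.55 (24 h) and 3.28 (48 h) there, the other Nnm arrays 31.2 to 43.2 and the controls -34.4 to -18.6. The 5′ minus 3′ log2 difference of the ACTB and GAPDH control probe sets reflects how intact the RNA was. ACTB gave -1.17 to -1.09 for replicate 2 in every group and -0.863 to -0.736 for replicates 1 and 3. GAPDH gave 0.0624 to 0.158 for replicate 2, inside the span of replicates 1 and 3 (0.0293 to 0.162). Only ACTB thus separates replicate 2, and whether its RNA was less intact is not settled by these controls. Results that change when both Nnm replicate 2 arrays are left out are given without them too. That choice was made after seeing the data and removes the Nnm arrays nearest the controls on the leading axis. Calls gained that way are therefore not independent evidence of a change, here and in the gene paragraphs below.

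The markers did not move as one group. With Nnm, 1 of the 9 tested genes rose at 24 h (CLU) and 3 rose at 48 h (VCAM1, IL18 and TIMP1), while none fell at either time (limma, adjusted p under 0.05 over all 10907 genes). Over all genes, 10.6% rose and 8.85% fell at 24 h, and 8.45% rose and 5.34% fell at 48 h. The count of 1 in 9 at 24 h is close to the share over all genes, and no test here sets the markers apart from other genes. For the mean of the changes at both times, CLU, VCAM1, IL18 and TIMP1 rose and ANXA2 fell, against 20.4% of all genes that rose and 16.9% that fell. The median log2 change of the 9 genes was 0.22 at 24 h and 0.58 at 48 h, beside 0.01 and 0.02 for all genes tested. Replicate numbers pair the Nnm and control arrays within each time. The block used here gives each number the same effect at 24 h and 48 h. Every blocked value thus also takes same-numbered arrays of both times as matched, which was not checked. With the number as a block in the fit 3 members passed at 24 h (CLU and TIMP1 up, ANXA2 down), where 38.8% of all genes passed. At 48 h 5 members passed (CLU, TIMP1, IL18 and VCAM1 up, ANXA2 down), where 32.2% of all genes passed. In the blocked fit of the mean HAVCR1 also fell, for 6 members in all, where 52.6% of all genes passed. Without both Nnm replicate 2 arrays, a choice made after seeing the data, 3 members passed at 24 h, 5 at 48 h and 7 for the mean, where 34.0%, 28.9% and 46.7% of all genes passed. The 3 Nnm values lay wholly outside the 3 control values for 3 members at 24 h and 5 at 48 h, and this held for 39.8% and 36.1% of all genes.

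**Figure D1:**
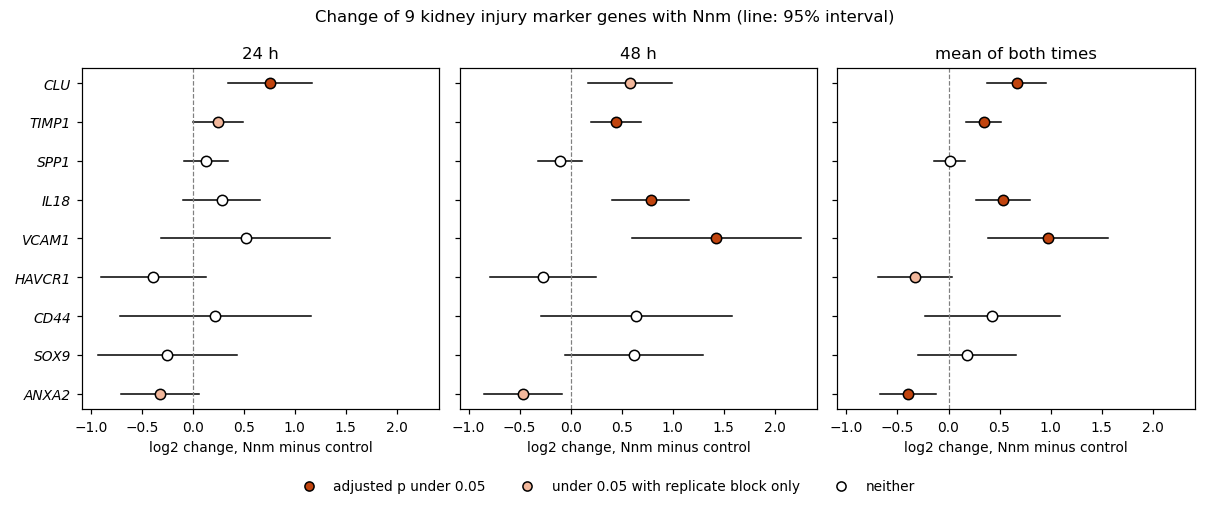
Log2 change (Nnm minus control) of the 9 tested genes at 24 h, at 48 h and for the mean of both, with 95% intervals from limma. Filled points passed an adjusted p of 0.05, pale points passed only with the replicate block, and open points passed in neither fit. CLU is the only filled point at 24 h, VCAM1, IL18 and TIMP1 are filled at 48 h, and ANXA2 lies below 0 in all 3 panels.

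Other cell type markers moved in the same arrays. All 4 expressed proximal tubule genes rose for the mean of both times (DPP4 0.98, CDH6 0.72, CDH2 0.64 and PAX8 0.63, adjusted p 0.000898 to 0.0165). Among all genes 20.4% rose for the mean. The summed linear level of the 15 genes was 12200 to 20330 in Nnm 24 h against 10530 to 13210 in control 24 h, and 23580 to 29280 in Nnm 48 h against 10650 to 12580 in control 48 h. Of 9 distal nephron genes with a probe set, 5 had a mean under 4. Among the 4 kept, SLC12A1 read 3.99 to 4.14, at the level of the filter. The sodium channel subunit SCNN1A rose at both times. The transcription factor TFCP2L1 rose at 24 h and for the mean, but did not pass at 48 h (adjusted p = 0.133). AQP3 differed by 1.35 at 24 h (adjusted p = 0.0515, and 0.00888 with the replicate block) and by 0.15 at 48 h (adjusted p = 0.844). The distal list summed to 1176 to 1386 in Nnm 24 h against 557 to 758 in control 24 h, and to 1209 to 1699 in Nnm 48 h against 916 to 1032 in control 48 h. SCNN1A (mean log2 9.43) carries most of this sum. Of 4 podocyte genes with a probe set, NPHS1 (2.67 to 2.82) and WT1 (2.83 to 2.94) lay under 4. The other 2 were expressed, and both rose for the mean (SYNPO 0.52, adjusted p = 0.0357, and PODXL 0.53, adjusted p = 0.0314). The fibroblast list summed to 4405 to 7001 in Nnm 24 h against 4999 to 7008 in control 24 h, and to 5327 to 6011 in Nnm 48 h against 4684 to 5072 in control 48 h. Its member COL1A1, a chain of collagen I, fell at 48 h (-0.53, adjusted p = 0.0491) and for the mean (-0.43, adjusted p = 0.0130), while the 48 h sum of the list was higher with Nnm. DCN (mean log2 11.97) carries most of the fibroblast sum. The part of these markers in the results below was not tested. All arrays are cultures of 1 line, and fewer expressing cells and less RNA per cell cannot be told apart in such bulk samples.

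Promoter sequences from RefSeq (GRCh38.p14) were at hand for 7 of the 10 genes, and 4 are shown: VCAM1, TIMP1 and ANXA2, which changed with Nnm, and LCN2, which was not detected but shares with VCAM1 an NF-kB match. Each line gives the 250 bases before the annotated start, 5′ to 3′ on the gene's strand, and capitals mark matches on either strand to the NF-kB consensus, AP-1 (TGANTCA), STAT (TTCNNNGAA) or a TATA box (TATAAA).
VCAM1, chr1:100719492-100719741, plus strand: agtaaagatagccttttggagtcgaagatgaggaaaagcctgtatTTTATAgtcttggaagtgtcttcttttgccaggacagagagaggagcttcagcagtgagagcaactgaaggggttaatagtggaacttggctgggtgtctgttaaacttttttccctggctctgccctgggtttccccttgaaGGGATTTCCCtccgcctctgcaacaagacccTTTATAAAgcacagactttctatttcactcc
LCN2, chr9:128149203-128149452, plus strand: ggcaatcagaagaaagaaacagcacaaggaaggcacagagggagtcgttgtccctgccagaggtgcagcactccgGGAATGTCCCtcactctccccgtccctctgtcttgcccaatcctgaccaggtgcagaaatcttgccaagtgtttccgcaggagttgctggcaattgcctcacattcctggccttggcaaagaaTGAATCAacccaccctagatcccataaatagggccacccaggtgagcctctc
TIMP1, chrX:47582186-47582435, plus strand: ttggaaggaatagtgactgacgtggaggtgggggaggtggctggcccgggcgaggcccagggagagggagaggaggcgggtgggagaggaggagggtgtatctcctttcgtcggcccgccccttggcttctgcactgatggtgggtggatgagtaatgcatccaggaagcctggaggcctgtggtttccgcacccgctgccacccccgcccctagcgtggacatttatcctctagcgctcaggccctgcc
ANXA2, chr15:60397987-60398236, minus strand: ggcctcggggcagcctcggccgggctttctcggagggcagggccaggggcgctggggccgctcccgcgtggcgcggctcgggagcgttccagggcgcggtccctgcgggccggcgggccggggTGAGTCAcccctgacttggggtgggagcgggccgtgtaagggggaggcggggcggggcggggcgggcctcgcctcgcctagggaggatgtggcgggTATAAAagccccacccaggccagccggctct
VCAM1 holds an NF-kB match 62 to 53 bases before the start, read on both strands, and TATA matches at 31 to 26 and 29 to 24, which overlap, and at 205 to 200. LCN2 holds an NF-kB match at 175 to 166 and an AP-1 match at 52 to 46. ANXA2 holds an AP-1 match at 127 to 121 and a TATA match at 31 to 26, and its Sp1 matches (GGGCGG) overlap at 78 to 63. TIMP1 has 2 Sp1 matches, at 135 to 130 and 45 to 40, which are not in capitals, and none of the capitalised motifs. Over 35114 promoters of the same length, 5.21% hold the NF-kB consensus, 6.57% AP-1, 6.57% STAT, 10.7% the TATA box and 42.6% Sp1. Of the 7 promoters, 2 hold the NF-kB consensus, 2 AP-1, 0 STAT, 2 the TATA box and 3 Sp1. These are matches of letters and were not tested for binding.

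CLU encodes clusterin, a secreted chaperone that binds misfolded proteins and cell debris. At 24 h its log2 values were 13.33, 12.90 and 13.20 in Nnm replicates 1 to 3, against 12.75, 12.16 and 12.24 in controls. At 48 h they were 14.02, 13.66 and 13.82 with Nnm, against 13.50, 13.14 and 13.11 in controls. All 3 Nnm values lay above all 3 control values at each time. CLU was 1.69-fold higher at 24 h (log2 change 0.76, SE 0.19, adjusted p = 0.0214). At 48 h the change was 0.58 (95% interval 0.17 to 0.99) and missed the threshold (adjusted p = 0.0612), but passed with the replicate block (adjusted p = 0.00447). Over the alternatives tried the adjusted p ran from 0.00223 to 0.0885 at 24 h and from 0.00447 to 0.197 at 48 h. The 24 h call was lost when only the 24 h groups were fitted, and when Nnm replicate 1, Nnm replicate 3, control replicate 2 or control replicate 3 of that time was left out. Without both Nnm replicate 2 arrays CLU passed at both times (0.88, adjusted p = 0.00826, and 0.67, adjusted p = 0.0307). All 3 kept probe sets of CLU were higher at each time, by 0.26 to 0.80 at 24 h and by 0.41 to 0.61 at 48 h, and 2 of them passed at 24 h when all kept probe sets were tested.

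CLU also read higher at 48 h than at 24 h in both groups, but neither change passed in the planned fit. Its log2 mean was 13.83 at 48 h and 13.14 at 24 h with Nnm, and 13.25 at 48 h and 12.39 at 24 h in controls. In neither case did the 48 h values overlap the 24 h values. The change over time was 0.69 with Nnm (adjusted p = 0.234) and 0.87 in controls (adjusted p = 0.118). Both passed with the replicate block (adjusted p = 0.0165 and 0.00369), which takes same-numbered arrays of the 2 times as matched, not checked here. The difference between the Nnm changes at the 2 times was -0.18 (95% interval -0.76 to 0.40, adjusted p = 0.949).

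**Figure D2:**
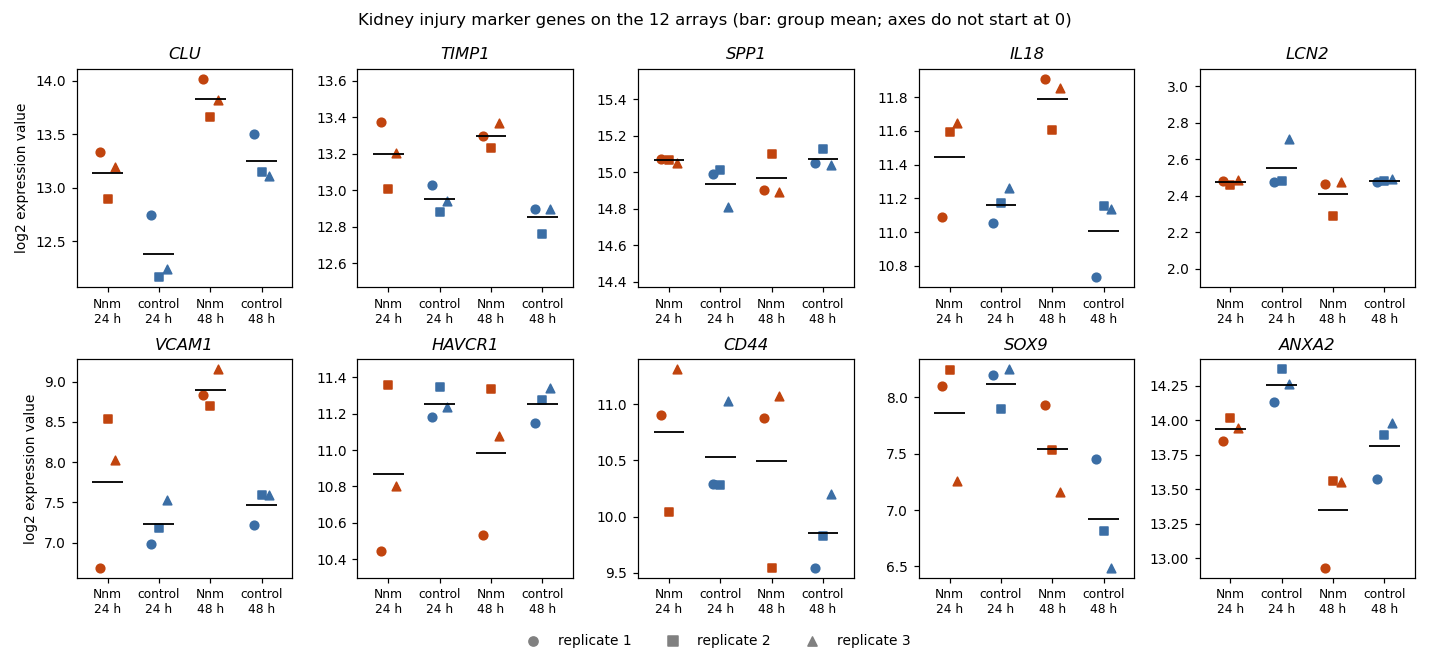
Log2 expression value of each of the 10 genes on every array, by group, with symbols for the replicate number and a bar for the group mean. The axes do not start at 0, and each spans at least 1.2 log2 units. CLU separates Nnm from control at both times, and LCN2 stays between 2.29 and 2.71 on all arrays.

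TIMP1 encodes a secreted inhibitor of matrix metalloproteinases. At 48 h its values were 13.30, 13.23 and 13.37 with Nnm, against 12.90, 12.76 and 12.90 in controls, with no overlap. This is a 1.36-fold rise (log2 change 0.45, SE 0.11, adjusted p = 0.0267). At 24 h they were 13.37, 13.01 and 13.21 with Nnm, against 13.03, 12.88 and 12.94 in controls, where Nnm replicate 2 fell just below control replicate 1. The 24 h change was 0.25 (95% interval 0.0019 to 0.49, adjusted p = 0.134), and it passed with the replicate block (adjusted p = 0.0428) and without both Nnm replicate 2 arrays (0.34, adjusted p = 0.0337). With weights per array it passed too (0.25, adjusted p = 0.0281). The Nnm value exceeded the control of its own number in all 6 pairs, by 0.13 to 0.47. The 48 h call was lost when only the 48 h groups were fitted and when Nnm replicate 1, Nnm replicate 3 or any 48 h control was left out, and its adjusted p ran from 0.00337 to 0.0922 over the alternatives.

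IL18 encodes interleukin-18, a cytokine stored as a precursor that caspase-1 cleaves in the inflammasome. At 48 h its values were 11.91, 11.60 and 11.85 with Nnm, against 10.73, 11.16 and 11.13 in controls, and the groups did not overlap. The rise was 1.72-fold (log2 change 0.78, SE 0.17, adjusted p = 0.0178). At 24 h the values were 11.09, 11.59 and 11.65 with Nnm, against 11.05, 11.17 and 11.26 in controls, and replicate 1 with Nnm lay among the controls. The 24 h change was 0.28 (95% interval -0.10 to 0.66, adjusted p = 0.259). With weights per array the 24 h change was 0.43 and passed (adjusted p = 0.0264). The change was larger at 48 h than at 24 h by 0.50, a difference that did not pass (95% interval -0.03 to 1.04, adjusted p = 0.801). Leaving out Nnm replicate 1, Nnm replicate 3 or control replicate 1 of 48 h ended the 48 h call (adjusted p from 0.00354 to 0.0759 over the alternatives). PYCARD, the inflammasome adaptor, differed by -0.25 at 24 h (adjusted p = 0.266) and 0.26 at 48 h (adjusted p = 0.271).

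SPP1 encodes osteopontin, a secreted matrix protein that binds integrins and CD44. Its values were 15.07, 15.07 and 15.05 with Nnm at 24 h, against 14.99, 15.01 and 14.81 in controls. At 48 h they were 14.91, 15.10 and 14.89 with Nnm, against 15.05, 15.13 and 15.04 in controls. All 3 pairs were higher with Nnm at 24 h (0.06 to 0.24) and all 3 lower at 48 h (-0.15 to -0.03). The groups did not overlap at 24 h and overlapped at 48 h. Neither change passed (0.13, adjusted p = 0.370, and -0.11, adjusted p = 0.487), nor did their difference of -0.23 (95% interval -0.54 to 0.07, adjusted p = 0.819). The brightest probe sets on the 12 arrays read 15.87 to 16.13, so SPP1 lies near the top of the scale. Its dimmer second probe set differed by -0.35 at 24 h and -0.08 at 48 h, so the 2 probe sets disagree in direction at 24 h.

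LCN2 encodes lipocalin-2 (NGAL), an iron-siderophore carrier and a widely used urinary marker. Its only probe set read 2.48, 2.46 and 2.49 with Nnm at 24 h, against 2.47, 2.48 and 2.71 in controls. At 48 h it read 2.47, 2.29 and 2.47 with Nnm, against 2.47, 2.48 and 2.49 in controls. These values lie below the level of 4 on every array, so LCN2 was not tested, and no change was detectable with this probe set. LRP2, the receptor that takes up filtered lipocalin-2, was also under 4 throughout.

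VCAM1 encodes an adhesion molecule that binds the integrin pair ITGA4 and ITGB1 on leukocytes, and it marks tubule cells that fail to complete repair. At 48 h its values were 8.84, 8.70 and 9.16 with Nnm, against 7.22, 7.60 and 7.59 in controls. Every Nnm array exceeded the highest control by more than 1 log2 unit. The rise was 2.69-fold (log2 change 1.43, SE 0.38, adjusted p = 0.0329), the largest log2 change among the 9 tested members at that time. At 24 h the values were 6.69, 8.53 and 8.03 with Nnm, against 6.98, 7.18 and 7.53 in controls. Replicates 2 and 3 with Nnm lay above all controls and replicate 1 below them all, and the change of 0.52 did not pass (95% interval -0.31 to 1.35, adjusted p = 0.343). It passed at 24 h only without Nnm replicate 1 of that time (1.05, adjusted p = 0.0364, in a range of 0.0364 to 0.809 over the alternatives). Without Nnm replicate 2 of that time the change was 0.13 (adjusted p = 0.809), and it was also 0.13 without both Nnm replicate 2 arrays (adjusted p = 0.808). The change was larger at 48 h by 0.91, which did not pass (95% interval -0.26 to 2.08, adjusted p = 0.819). The 48 h call was lost without the filter on dim probe sets and when Nnm replicate 1, Nnm replicate 3 or any 48 h control was left out (adjusted p from 0.00366 to 0.108).

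HAVCR1 encodes KIM-1, a receptor for phosphatidylserine that lets injured tubule cells engulf dying ones. In this line it was well expressed in controls. Its values were 10.45, 11.35 and 10.80 with Nnm at 24 h, against 11.18, 11.34 and 11.23 in controls. At 48 h they were 10.53, 11.34 and 11.08 with Nnm, against 11.15, 11.27 and 11.34 in controls. Nnm replicates 1 and 3 lay below all controls at each time, and replicate 2 lay at the level of the highest control. The log2 change was -0.39 at 24 h (95% interval -0.90 to 0.13, adjusted p = 0.257) and -0.27 at 48 h (-0.79 to 0.25, adjusted p = 0.459). For the mean of both times it was -0.33 (adjusted p = 0.141, and 0.0355 with the replicate block). Both Nnm replicate 2 arrays were also left out, a choice made after seeing the data. HAVCR1 then passed as lower at 24 h (-0.63, adjusted p = 0.0216) and for the mean (-0.54, adjusted p = 0.00635), but not at 48 h (-0.45, adjusted p = 0.0827). Without Nnm replicate 1 of the same time the change was -0.18 at 24 h (adjusted p = 0.655) and -0.05 at 48 h (adjusted p = 0.927).

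CD44 encodes the receptor for hyaluronan, which also binds osteopontin and carries many splice variants. On its brightest probe set the values were 10.91, 10.04 and 11.31 with Nnm at 24 h, against 10.29, 10.29 and 11.03 in controls. At 48 h they were 10.87, 9.55 and 11.08 with Nnm, against 9.54, 9.83 and 10.20 in controls. Replicates 1 and 3 lay above their controls and replicate 2 below, at each time. The log2 change was 0.22 at 24 h (adjusted p = 0.743) and 0.64 at 48 h (95% interval -0.29 to 1.58, adjusted p = 0.327). The 24 h change was 0.58 without Nnm replicate 2 of that time and -0.06 without Nnm replicate 3, neither of which passed, so single arrays set its size and sign. Without both Nnm replicate 2 arrays, a choice made after seeing the data, CD44 was 0.58 higher at 24 h (adjusted p = 0.126). It then passed as higher at 48 h (1.12, adjusted p = 0.0140) and for the mean (0.85, adjusted p = 0.00573). With weights per array CD44 also passed at 48 h and for the mean.

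Of the 13 probe sets annotated to CD44, 8 were kept, and 7 of them were higher with Nnm at 24 h and 8 at 48 h, with changes of -0.09 to 0.65 and of 0.33 to 1.27. None passed when all kept probe sets were tested (lowest adjusted p 0.539 at 24 h and 0.139 at 48 h). With the replicate block 0 of the 8 passed at 24 h and 4 at 48 h (adjusted p from 0.0182 to 0.123 at 48 h). Replicate 2 lay apart from the others. Its differences from the control of the same number were -0.41 to 0.36 at 48 h over the 8 probe sets, while those of replicate 1 were 0.18 to 2.36 and those of replicate 3 were 0.77 to 1.59. At 24 h the medians over the 8 probe sets were 0.86, -0.14 and 0.43 in replicates 1, 2 and 3.

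**Figure D3:**
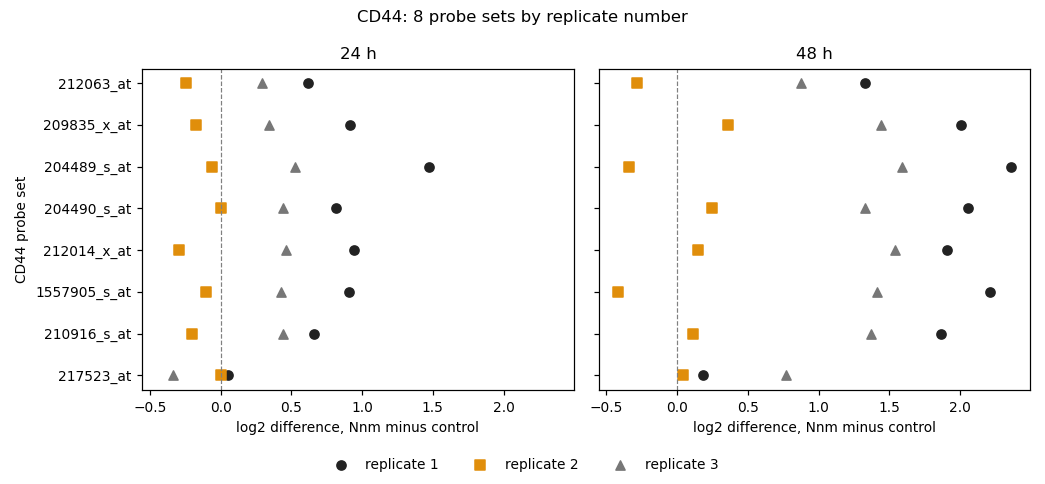
Log2 difference (Nnm minus control of the same replicate number) for the 8 kept CD44 probe sets at 24 h and 48 h. Replicates 1 and 3 lie to the right of 0 for all 8 probe sets at 48 h, and replicate 2 lies around 0.

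SOX9 encodes a transcription factor of nephron development that returns in repairing tubule cells. Its values were 8.10, 8.24 and 7.25 with Nnm at 24 h, against 8.20, 7.89 and 8.25 in controls. At 48 h they were 7.93, 7.53 and 7.16 with Nnm, against 7.46, 6.82 and 6.49 in controls. At 24 h the groups overlapped, with Nnm replicate 3 the lowest array, and at 48 h each Nnm array exceeded the control of its number, by 0.48 to 0.72. The log2 change was -0.25 at 24 h (adjusted p = 0.592) and 0.62 at 48 h (95% interval -0.06 to 1.30, adjusted p = 0.191), and their difference of 0.87 did not pass (95% interval -0.09 to 1.83, adjusted p = 0.801). In controls SOX9 averaged 6.92 at 48 h and 8.11 at 24 h, a difference of -1.19 (adjusted p = 0.166, and 0.0179 with the replicate block). With Nnm it averaged 7.54 at 48 h and 7.86 at 24 h, a difference of -0.32 (adjusted p = 0.746). The 24 h change turned to 0.06 without Nnm replicate 3 of that time (adjusted p = 0.924) and was -0.44 without Nnm replicate 2 (adjusted p = 0.346), so its sign rests on 1 array. The second probe set of SOX9 differed by -0.01 at 24 h and 0.55 at 48 h.

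**Figure D4:**
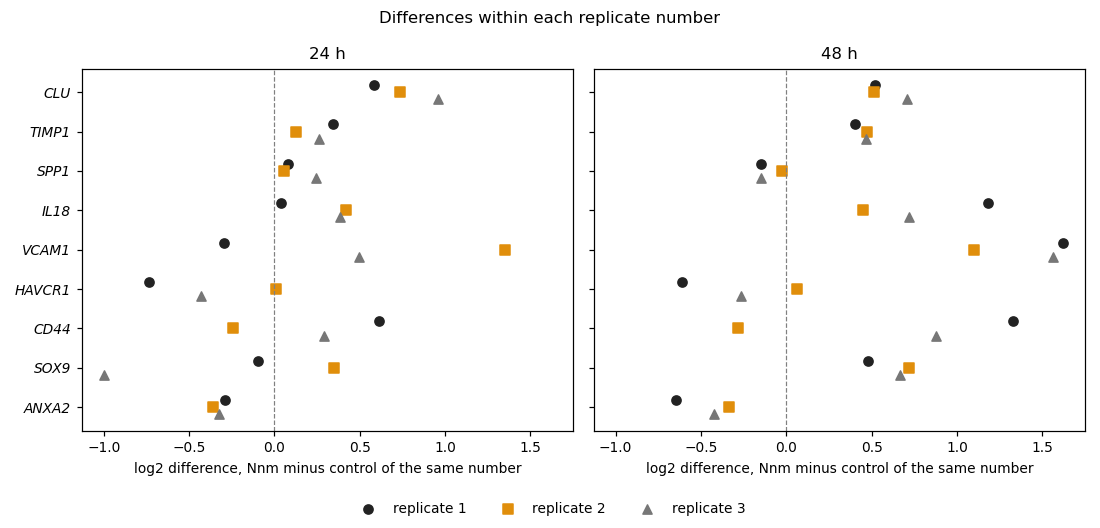
Log2 difference between the Nnm and control array of the same replicate number, for the 9 tested genes at 24 h and 48 h. CLU and TIMP1 are above 0 and ANXA2 is below 0 in all 6 pairs, and for HAVCR1 and CD44 replicate 2 lies apart from replicates 1 and 3 at both times.

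ANXA2 encodes annexin A2, a calcium-dependent membrane-binding protein that pairs with S100A10 to hold plasminogen activators at the cell surface. Its values were 13.85, 14.02 and 13.94 with Nnm at 24 h, against 14.14, 14.37 and 14.27 in controls. At 48 h they were 12.93, 13.56 and 13.55 with Nnm, against 13.58, 13.89 and 13.98 in controls. All 3 Nnm values lay below all 3 control values at each time. For the mean of both times ANXA2 fell, with a log2 change of -0.40 (95% interval -0.67 to -0.12, adjusted p = 0.0279). The single-time changes were -0.32 at 24 h (adjusted p = 0.204, and 0.0486 with the block) and -0.47 at 48 h (adjusted p = 0.0928, and 0.0157 with the block). The call for the mean was lost without the filter and on leaving out any of Nnm 24 h replicates 1 and 3, control 24 h replicates 2 and 3 and control 48 h replicates 2 and 3 (adjusted p from 0.00339 to 0.0685 over the alternatives). Its 3 kept probe sets differed alike, by -0.38 to -0.32 at 24 h and -0.51 to -0.47 at 48 h. All 3 are of the kind that can bind near-identical transcripts, and the probe set of the pseudogene ANXA2P2 was also lower (mean change -0.50, adjusted p = 0.0156), so the 2 cannot be told apart here. S100A10 differed by -0.17 at 24 h (adjusted p = 0.259) and -0.06 at 48 h (adjusted p = 0.733).

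The annexins are a family of proteins that bind membranes in the presence of calcium. Of 10 tested beside ANXA2, the pseudogene ANXA2P2 among them, 1 fell at each time and none rose, and 4 fell for the mean of both times. With the replicate block 4 fell at 24 h, 5 at 48 h and 7 for the mean, and none rose. ANXA2P2, which cannot be told apart from ANXA2 here, is among those that fell for the mean and in each blocked count. These counts are therefore not fully separate from ANXA2 itself. Of all 10907 genes tested, 8.85% fell at 24 h, 5.34% at 48 h and 16.9% for the mean. In the blocked fit 2051, 1492 and 2685 of all genes fell, in the same order. The median change of the 10 was -0.18 at 24 h and -0.26 at 48 h, beside 0.01 and 0.02 for all genes tested. ANXA3 averaged 8.48 ± 0.80 with Nnm and 10.61 ± 0.42 in controls at 24 h (SD, n = 3 each), a change of -2.13 (adjusted p = 0.0115). At 48 h it averaged 8.50 ± 0.68 with Nnm and 10.17 ± 0.40 in controls (SD, n = 3 each), a change of -1.67 (adjusted p = 0.0303). For the mean, ANXA5, the protein used to stain dying cells, fell with -0.32 (adjusted p = 0.0145) and ANXA4 with -0.33 (adjusted p = 0.0276).

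Over time, no member passed between Nnm 48 h and Nnm 24 h or between control 48 h and control 24 h, where 0.119% and 0.128% of all genes passed. At an unadjusted p under 0.05, 3 members and 1176 genes stood out with Nnm, and 3 members and 1711 genes in controls. With the replicate block CLU rose and ANXA2 fell with Nnm (2.29% of all genes passed), and CLU rose and SOX9 and ANXA2 fell in controls (8.47% of all genes passed). Like the blocked calls within a time, these take same-numbered arrays of 24 h and 48 h as matched, which was not checked. ANXA2 differed over time by -0.59 with Nnm (adjusted p = 0.274, blocked 0.0380) and by -0.44 in controls (adjusted p = 0.259, blocked 0.0449). The difference between the Nnm changes at 48 h and 24 h passed for no member and for 0% of all genes in limma. At an unadjusted p under 0.05 it held for 0 members and 698 genes. These comparisons share groups with those above, so their values are not independent of them.

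Among 43 other genes tied to kidney injury, 33 were tested: 0 rose and 5 fell at 24 h, 1 rose and 2 fell at 48 h, and 2 rose and 9 fell for the mean. With the replicate block 5 rose and 10 fell at 24 h, 4 rose and 8 fell at 48 h, and 6 rose and 14 fell for the mean. The shares over all genes were 10.6% up and 8.85% down at 24 h, and 8.45% up and 5.34% down at 48 h. For the mean they were 20.4% up and 16.9% down. With the block 38.8%, 32.2% and 52.6% of all genes passed in either direction. The median change of the 33 was -0.12 at 24 h and -0.20 at 48 h. ICAM1, an adhesion molecule for leukocyte integrins and like VCAM1 a known NF-kB target, averaged 8.11 ± 0.29 with Nnm and 9.07 ± 0.41 in controls at 24 h, and 8.31 ± 0.10 with Nnm and 9.31 ± 0.27 in controls at 48 h (SD, n = 3 each). It fell with changes of -0.97 (adjusted p = 0.0164) and -0.998 (adjusted p = 0.0175), so ICAM1 and VCAM1 moved in opposite directions at 48 h. FGB, the fibrinogen beta chain, fell at 24 h (-0.61, adjusted p = 0.00563) and differed by -0.16 at 48 h (adjusted p = 0.256). SOX4, a transcription factor of the SOX family, rose at 48 h (0.76, adjusted p = 0.0180), with 0.48 at 24 h (adjusted p = 0.0675, and 0.00610 with the replicate block). ANXA3, described above, is in this list too.

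**Figure D5:**
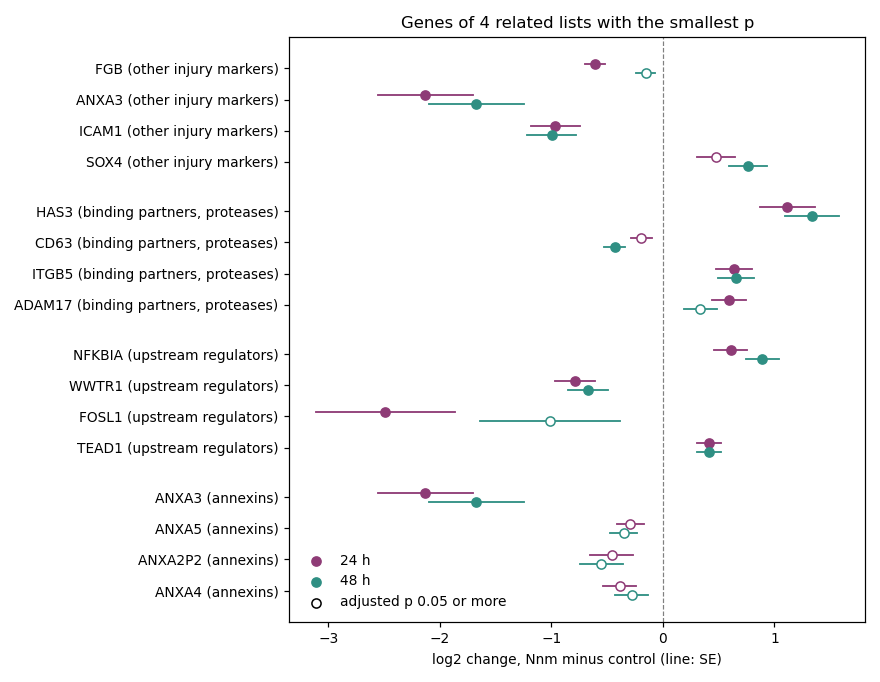
Log2 change (Nnm minus control) with its SE at 24 h and 48 h for the 4 genes with the smallest p in each of 4 lists of genes related to the markers. Filled points passed an adjusted p of 0.05. The Nnm means of FOSL1 and its 48 h control mean lie under a log2 of 4, so the length of its changes is not a measured fold. ICAM1, ANXA3 and WWTR1 lie below 0 and HAS3, ITGB5, NFKBIA and TEAD1 above 0, all filled at both times.

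Of 37 receptors, ligands, proteases and other partners of the markers, 21 were tested and 16 had means under 4. At 24 h 3 rose and 1 fell, at 48 h 2 rose and 1 fell, and their median changes were -0.02 and 0.07. With the replicate block 5 rose and 3 fell at 24 h, and 2 rose and 3 fell at 48 h. The shares over all genes were 10.6% up and 8.85% down at 24 h, and 8.45% up and 5.34% down at 48 h. With the block 38.8% and 32.2% of all genes passed in either direction. HAS3, which makes the CD44 ligand hyaluronan, averaged 11.07 ± 0.41 with Nnm and 9.96 ± 0.09 in controls at 24 h, and 11.13 ± 0.49 with Nnm and 9.79 ± 0.13 in controls at 48 h (SD, n = 3 each). It rose by 1.12 (adjusted p = 0.0149) and 1.34 (adjusted p = 0.0111). ITGB5, an integrin subunit that with ITGAV binds osteopontin, rose by 0.64 (adjusted p = 0.0238) and 0.66 (adjusted p = 0.0265), and ITGAV differed by -0.02 and -0.09 (adjusted p = 0.932 and 0.611). ADAM17, a protease that sheds surface proteins, VCAM-1 among them, rose at 24 h (0.59, adjusted p = 0.0231), with 0.34 at 48 h (adjusted p = 0.145). CD63, a tetraspanin and surface receptor of TIMP-1, fell at 48 h (-0.43, adjusted p = 0.0183), with -0.19 at 24 h (adjusted p = 0.172). MSN, or moesin, which ties CD44 to actin, fell at 24 h (-0.40, adjusted p = 0.0238), with -0.32 at 48 h (adjusted p = 0.0585, and 0.0302 with the replicate block).

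Of 30 regulators that act upstream of the markers, 25 were tested: 3 rose and 2 fell at 24 h, 3 rose and 1 fell at 48 h, and the median changes were 0.01 and 0.20. With the replicate block 4 rose and 5 fell at 24 h, and 7 rose and 5 fell at 48 h. Among all genes 10.6% rose and 8.85% fell at 24 h, and 8.45% rose and 5.34% fell at 48 h. With the block 38.8% and 32.2% of all genes passed in either direction. NFKBIA, the inhibitor that NF-kB itself induces, averaged 11.09 ± 0.08 with Nnm and 10.48 ± 0.05 in controls at 24 h, and 11.46 ± 0.35 with Nnm and 10.56 ± 0.04 in controls at 48 h (SD, n = 3 each). It rose by 0.61 (adjusted p = 0.0220) and 0.89 (adjusted p = 0.00813). WWTR1, or TAZ, a coactivator in the Hippo pathway, fell at both times (-0.79, adjusted p = 0.0169, and -0.67, adjusted p = 0.0344), whereas its DNA-binding partner TEAD1 rose (0.42, adjusted p = 0.0264, and 0.41, adjusted p = 0.0331). FOSL1, a subunit of AP-1, averaged 3.22 ± 0.45 with Nnm and 5.71 ± 1.10 in controls at 24 h, and 2.94 ± 0.34 with Nnm and 3.95 ± 1.26 in controls at 48 h (SD, n = 3 each). It passed as lower at 24 h (adjusted p = 0.0233) and, with the replicate block alone, at 48 h (adjusted p = 0.293, and 0.0471 with the block). FOSL1 was kept through its control arrays, so its calls are not independent of the filter, and the counts above include it. Its Nnm means and its 48 h control mean lie under 4, so the size of its changes is not read as a measured fold. The NF-kB subunit RELA differed by -0.10 and 0.01 (adjusted p = 0.782 and 0.982).

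For each member that passed at 24 h or 48 h, the 3 tested genes with the highest Pearson correlation over the 12 arrays are given as a description. The 12 arrays share the 4 groups, so group differences enter each value. CLU ran most like LETMD1 (0.967), EIF4B (0.962) and GLIS2 (0.958). VCAM1 ran most like PCK1 (0.928), ZNF883 (0.922) and C4orf36 (0.917). PCK1, the gluconeogenic enzyme of the proximal tubule, averaged 3.89 with Nnm and 3.08 in controls at 24 h, and 5.28 with Nnm and 3.17 in controls at 48 h. It passed as higher at 24 h (adjusted p = 0.0269) and at 48 h (adjusted p = 0.00120). However, PCK1 was kept through its Nnm arrays, so these calls are not independent of the filter. Both 24 h means and the 48 h control mean lie under 4, so no size of change is given. IL18 ran most like ZNF347 (0.972), MATN2 (0.954) and CCNT1 (0.952), and TIMP1 most like ETV3 (0.967), ELF2 (0.948) and ZNF615 (0.945).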

How the data were processed

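RNA of each HK-2 culture went as biotinylated cRNA on 1 Affymetrix array. The authors deposited log2 values from GCRMA, a background correction by probe sequence with quantile normalisation, per the submitters' processing notes. The sources used here do not give its version or which arrays were normalised together, and base 2 was taken from how far the values reach.

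Probe sets were named from the platform annotation table. Of 54675 probe sets, 41091 carried 1 gene symbol, 1801 several and 11721 none there, and 62 were controls. RefSeq names (GRCh38.p14) altered 0 symbols. A probe set was kept if 3 or more arrays exceeded a log2 of 4 (19832 with 1 gene), and each gene was taken from its kept probe set with the highest mean. One further probe set, shared by SNU13 and ANXA2, was not used. The test was limma's (version 3.58.1, R 4.3.3), with lmFit and eBayes on the 12 arrays and 4 group means, and p adjusted by Benjamini and Hochberg over 10907 genes and a threshold of 0.05. SEs and intervals are limma's, pooled over the arrays. The labels call the replicates biological without naming separate passages or days, so p-values measure the spread between these samples. The script was tested on simulated data.

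With group means removed, same-numbered Nnm and control arrays of a time had correlations of 0.34 to 0.51. The highest with another number was -0.05, so the replicate numbers pair these arrays within a time. Whether the numbers also match between 24 h and 48 h was not checked. The block gives each number the same effect at both times, so all blocked values rest on such a match. The planned fit has no block, and the blocked value stands beside a result where it changes the call.

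The members and the lists of related genes and cell type markers were chosen with earlier results of these data known. Besides the 10 members with all probe sets, up to 4 genes of each related list with the smallest p, partners of a member described and the 3 genes most like each member that passed are named. Alternatives were no filter and a stricter one, a mean over each gene's probe sets, every probe set apart, quantile normalisation, median centring, trend and robust settings, weights per array, the replicate block, the compared groups alone and each array left out. Leaving out both Nnm replicate 2 arrays was added after seeing the data. Python 3.11.15 with matplotlib 3.10.9 drew the plots. Promoters came from RefSeq (GRCh38.p14). No genome was used, and proteins were not analysed here.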

Additional observations from a re-analysis of the deposited data

How the results depend on the processing

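No direction of a member that passed was reversed under any alternative. The number of members called moved with the settings as follows. At 24 h (1 with the planned fit) it was 3 with the replicate block, 0 with only the 24 h groups, 4 with array weights, 3 without both Nnm replicate 2 arrays (chosen after seeing the data), and 0 to 3 with each array left out. It was 0 without Nnm replicate 3, control replicate 2 or control replicate 3 of that time. At 48 h (3 planned) it was 5 with the block, 5 with array weights, 5 without both Nnm replicate 2 arrays, and 0 to 4 with each array left out. There it was 0 without Nnm replicate 1, Nnm replicate 3 or control replicate 1, and 1 without control replicate 2 or 3. For the mean (5 planned) it was 3 without the filter, where VCAM1 and ANXA2 no longer passed, and 4 to 6 with an array left out. Over time in controls (0 planned) it was 3 with the block. Over time with Nnm (0 planned) it was 2 with the block, 3 with array weights and 0 to 1 with an array left out. The difference between times gave 0 members under every alternative.

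All genes called at 24 h (2116) were 1272 without the filter, 4237 with the block, 837 with only the 24 h groups, 4864 with array weights, 3703 without both Nnm replicate 2 arrays and 404 to 3248 with an array left out. At 48 h (1504) they were 879, 3515, 514, 3468, 3156 and 267 to 2403 in the same order. Of 1170 values of single members under the alternatives, 1080 kept their direction and side of the threshold, 28 lost a call, 36 gained one and 26 changed sign with no call in either fit, 10 of these for SPP1 and 9 for HAVCR1.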

Other observations

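The probe set shared by SNU13 and ANXA2 read 12.12 to 12.92 over the 12 arrays and differed by -0.41 at 24 h and -0.43 at 48 h (Nnm minus control). The 8 probe sets of the members that were not kept, 5 of them for CD44, read 1.85 to 4.25.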
